A study of Mus musculus with 11 samples.

Results

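A group of 10 genes of the Notch signalling pathway were followed in mouse primary myoblasts, dividing cells that can go on to form muscle fibres. They were chosen by name for their place in the pathway, with earlier results of these data known. All 10 were found by Ensembl gene identifier among the 22104 genes of the deposited table. They comprised the receptors Notch1, Notch2 and Notch3, the ligands Dll1, Jag1 and Jag2, the DNA-binding factor Rbpj, and the target genes Hes1, Hey1 and Heyl. All 4 groups were C57BL/6 cells of tibialis anterior origin from mice aged about 8 weeks. All were cultured in Ham's F-10 with 20% FBS (fetal bovine serum), with bFGF, a fibroblast growth factor, added at 2.5 ng/ml. The wild-type groups were 2 libraries after 6 h at 21% oxygen (wild-type normoxia) and 3 after 6 h at 1% oxygen (wild-type hypoxia). The Bmal1-/- groups, called knockout below, were 3 libraries at each oxygen level. Bmal1, listed as Arntl, is the clock transcription factor that pairs with CLOCK. The labels do not say which mice or cultures gave the libraries, so p-values reflect spread among libraries that may be technical replicates.

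Notch signalling passes between touching cells. A Delta or Jagged ligand on one cell binds a Notch receptor on its neighbour, the receptor is cut by an ADAM protease and then by gamma-secretase, and the freed intracellular domain enters the nucleus. There it joins RBPJ and a Mastermind coactivator and turns on HES and HEY genes, which encode basic helix-loop-helix repressors. In skeletal muscle the pathway is known for holding satellite cells in quiescence and for restraining myogenic differentiation.

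In these cells Jag1, Rbpj and Jag2 changed in ways that passed the test under every alternative tried. Jag1 was lower in the knockout at both oxygen levels, at 0.540 of the wild-type level in normoxia and 0.592 in hypoxia. Rbpj rose in hypoxia in both genotypes, 1.22-fold in wild-type and 1.21-fold in knockout cells. Jag2 rose 1.34-fold in hypoxia in the knockout. The targets Hes1 and Hey1 were lower in the knockout in normoxia, but each call was lost under 10 of 19 alternatives. No member passed the test of whether its hypoxia effect differed by genotype.

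The promoters of Jag1, Jag2 and Rbpj are shown because the factors at issue, BMAL1 with CLOCK, the hypoxia-inducible factors and RBPJ itself, are known to bind short DNA motifs. Each line gives the 250 bases before the transcription start from RefSeq (build GRCm38), read 5′ to 3′ on the gene's strand. Capitals mark matches, on either strand, to the E-box CACGTG, to a hypoxia response core spelled ACGTG, to its variant spelled GCGTG, or to the RBPJ core spelled TGGGAA. Jag1 (minus strand) is chr2:137116521-137116770, Jag2 (minus strand) is chr12:112929496-112929745, and Rbpj (plus strand, the first of its 2 listed starts) is chr5:53590096-53590345.
Jag1: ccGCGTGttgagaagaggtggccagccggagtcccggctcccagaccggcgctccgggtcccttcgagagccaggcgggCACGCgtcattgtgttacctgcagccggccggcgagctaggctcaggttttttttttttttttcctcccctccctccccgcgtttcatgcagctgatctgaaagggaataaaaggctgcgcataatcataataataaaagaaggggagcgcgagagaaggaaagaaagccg
Jag2: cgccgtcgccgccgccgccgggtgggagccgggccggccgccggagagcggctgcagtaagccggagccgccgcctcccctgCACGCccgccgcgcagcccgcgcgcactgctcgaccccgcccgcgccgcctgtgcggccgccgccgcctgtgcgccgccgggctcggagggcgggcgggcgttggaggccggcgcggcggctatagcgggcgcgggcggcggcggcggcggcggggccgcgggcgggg
Rbpj: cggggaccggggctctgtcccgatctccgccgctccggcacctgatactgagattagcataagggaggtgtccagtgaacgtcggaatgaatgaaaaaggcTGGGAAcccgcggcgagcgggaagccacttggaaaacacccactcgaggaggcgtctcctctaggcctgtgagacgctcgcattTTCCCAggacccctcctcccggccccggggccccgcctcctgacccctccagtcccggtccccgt

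RefSeq windows of 300 bases, 250 before and 50 after the start, were held for 7 of the 10 members, 9 windows in all. Notch1, Notch2, Notch3, Jag1 and Jag2 had 1 window each, and Dll1 and Rbpj had 2. CACGTG was in 0 of the 9 windows, against 7.15% of 32851 mouse windows. ACGTG, which lies inside CACGTG, was in 3 of 9 against 19.6%, and these were the windows of Notch3 and Rbpj. GCGTG was in 7 of 9 against 32.4%, in every window but those of Rbpj. The Jag1 window held GCGTG 248 and 171 bases before the start, and the Jag2 window 168 bases before it and 18 bases after it. TGGGAA, the core of the RBPJ motif, was in 2 of 9 against 25.6%, both of them Rbpj windows. In the Rbpj window printed it stood 149 and 65 bases before the start. The 2 Rbpj windows overlap. The TGGGAA 65 bases before that start and the ACGTG 29 bases after it were therefore each counted in both windows. That ACGTG lies outside the bases printed. These are matches of letters and not measured binding.

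Libraries held 18707697 to 33613328 recovered reads, and every library from 1% oxygen was deeper than every library from 21% oxygen. Values are normalized counts: the authors divided each library's read counts by 1 size factor. Arntl was at 264 to 267 in wild-type normoxia, 322 to 328 in wild-type hypoxia, 98.8 to 117 in knockout normoxia and 128 to 134 in knockout hypoxia. It was thus lower in every knockout library. The labels do not say which exons the allele removes, so this checks the genotype only in part. All 10 genes of a hypoxia check list, such as Vegfa and Slc2a1, rose in both genotypes. The defining myoblast markers Pax7 (1123 to 1595), Myod1 (7793 to 9502) and Des (6927 to 8391) were present in all libraries.

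Levels were compared between members only per kilobase, as the normalized count over the length of all annotated exons. Hes1 was highest, with a median over the 11 libraries of 625 per kb, and Rbpj was next at 381. Notch2 followed at 177 and Jag2 at 159, then Dll1 at 103 and Notch1 at 77.3. Jag1 stood at 57.2, Notch3 at 55.4, Hey1 at 43.7 and Heyl at 16.5. The library ranges of neighbours in this order did not overlap between Hes1 and Rbpj, between Rbpj and Notch2, and between Jag2 and Dll1. Every other neighbouring pair overlapped and was not separated by its spread. Heyl rested on 44 to 133 recovered reads per library and Hey1 on 74 to 224.

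**Figure D1:**
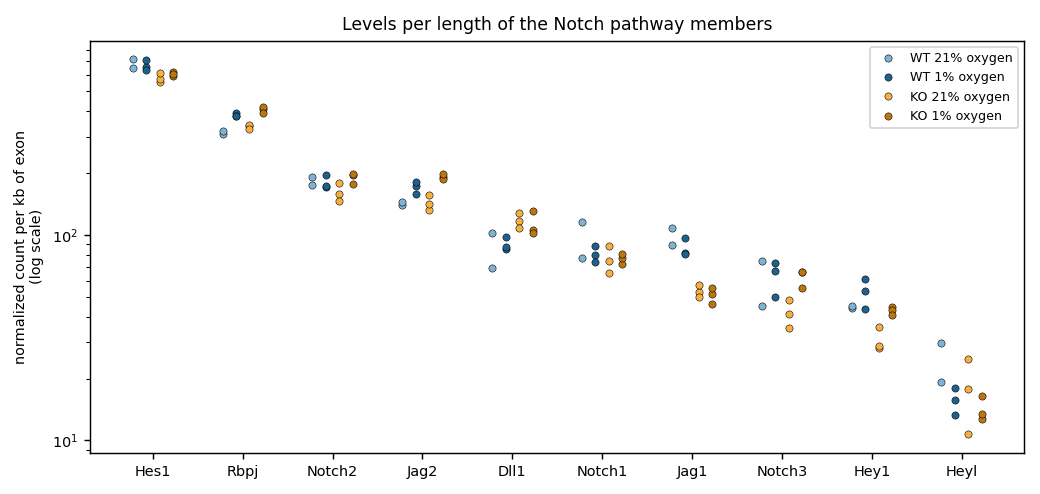
Normalized count per kilobase of exon (vertical axis, log scale) for the 10 members, ordered by median, with 1 point per library coloured by group. Hes1 lies above all others with a median of 625 per kb, and Heyl lies lowest at 16.5.

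Genes were tested with limma on log2(value + 1), a gene was called at a Benjamini-Hochberg adjusted p under 0.05 over 14729 tested genes, and only called genes are said to have risen or fallen. All 10 members passed the filter of at least 10 in at least 2 libraries. Fold changes are from the same scale. The counts over the 10 members were read against those over all tested genes. In wild-type hypoxia 1 member rose, where 1.7% of all genes did, and 0 fell, where 0.468% did. In knockout hypoxia 2 rose, where 3.15% of all genes did, and 0 fell, where 0.937% did. Between genotypes in normoxia 0 members rose, where 3.44% of all genes did, and 3 fell, where 5.66% did. In hypoxia 0 rose, where 3.33% did, and 1 fell, where 5.61% did. The median log2 change of the members was -0.28 between genotypes in normoxia and -0.04 in hypoxia, beside a median of 0.00 over all genes in both (0.0049 and 0.0045). For hypoxia against normoxia it was 0.04 in wild-type and 0.15 in the knockout. At an unadjusted p under 0.05, limma had 2 members in wild-type hypoxia, 5 in knockout hypoxia, 7 between genotypes in normoxia and 4 in hypoxia. In the same order, 2000, 2584, 3451 and 3089 of all 14729 tested genes were under that cut. The tool edgeR called 2 members downward between genotypes in normoxia, as did DESeq2, and the latter also called 1 upward.

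Among the receptors, Notch1 is the one most studied in satellite cells. It was at 1098 and 1653 in wild-type normoxia, 1133, 1053 and 1253 in wild-type hypoxia, 933, 1068 and 1255 in knockout normoxia, and 1027, 1101 and 1149 in knockout hypoxia. Wild-type normoxia replicate 2 stood high and the groups overlapped in every comparison. Notch2, a second receptor of satellite cells, was at 1881 and 2063 in wild-type normoxia and at 1843, 1865 and 2125 in wild-type hypoxia. In the knockout it was at 1703, 1584 and 1926 in normoxia and at 1908, 2109.8 and 2131 in hypoxia. Its groups overlapped in every comparison. Its log2 change in hypoxia was 0.24 in the knockout (SE 0.08, adjusted p = 0.112) and -0.02 in wild-type (SE 0.09, adjusted p = 0.947).

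Notch3, a receptor also used as a pericyte marker, was at 364 and 606 in wild-type normoxia and at 593, 403 and 543 in wild-type hypoxia. Knockout libraries were at 335, 285 and 392 in normoxia and at 533, 448 and 535 in hypoxia. The knockout groups did not overlap between oxygen levels, while the wild-type groups did. Its log2 change in knockout hypoxia was 0.59 (SE 0.18, adjusted p = 0.0949), which missed the threshold. It passed with DESeq2 on recovered reads (adjusted p = 0.0232), with only the 2 groups compared (0.0261) and on removal of wild-type normoxia replicate 1 (0.0395) or 2 (0.0397). None of the 3 receptors was called in any of the 5 comparisons.

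The receptor values between genotypes depended on which wild-type normoxia library was kept. Wild-type normoxia replicate 2 exceeded replicate 1 1.67-fold for Notch3, 1.54-fold for Heyl, 1.51-fold for Notch1 and 1.48-fold for Dll1, against a median ratio of 1.09 over all tested genes. Without replicate 1, Notch1 was called lower in the knockout in normoxia (log2 change -0.62, adjusted p = 0.0216), as was Notch3 (-0.86, adjusted p = 0.0305). With both libraries the values were -0.32 (SE 0.15, adjusted p = 0.206) and -0.49 (SE 0.20, adjusted p = 0.160). In hypoxia the same contrasts were -0.07 (SE 0.13) for Notch1 and -0.01 (SE 0.18) for Notch3. Notch2 in knockout hypoxia was called only without knockout normoxia replicate 3 (log2 change 0.32, adjusted p = 0.0317).

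**Figure D2:**
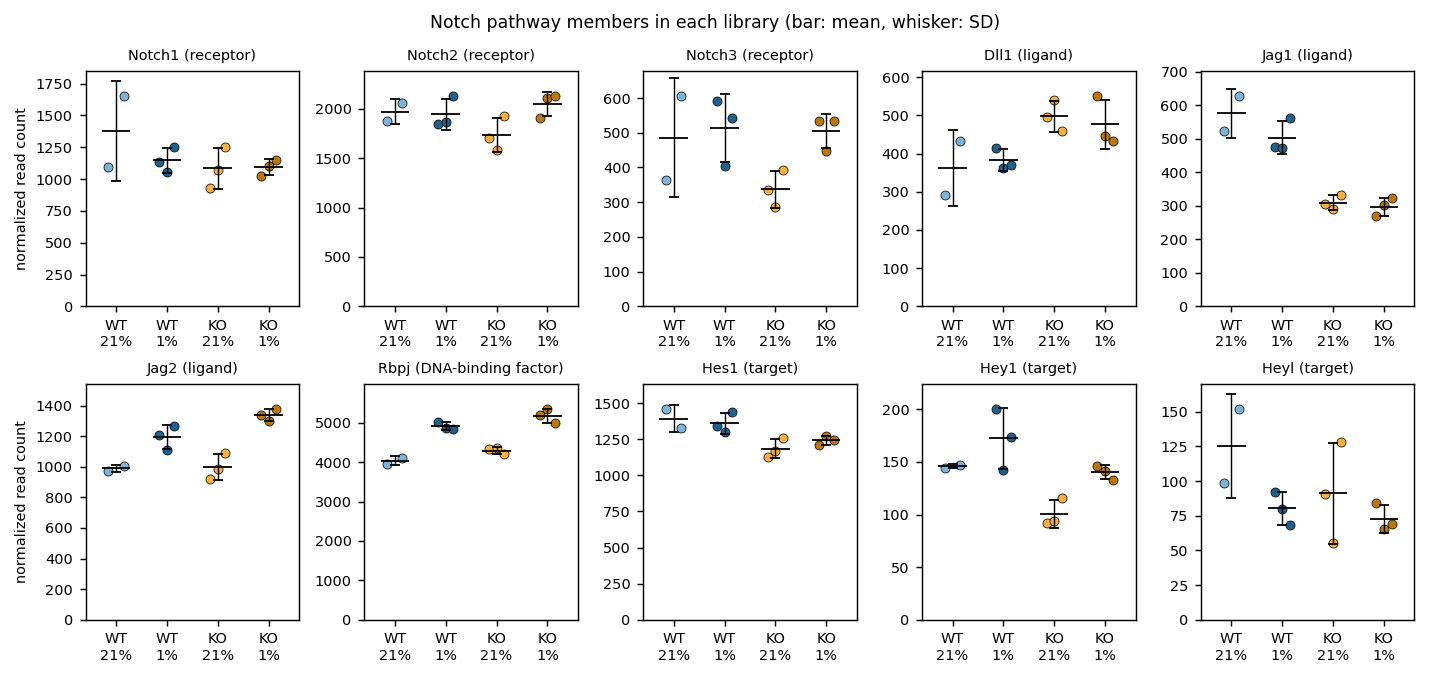
Normalized read count (vertical axis, from 0) of each member in each library, with points for libraries, a horizontal bar for the group mean and a whisker for the SD (WT, wild-type, KO, knockout, oxygen in percent). The 6 knockout libraries of Jag1 sit between 269 and 333, below all 5 wild-type libraries, and the Rbpj hypoxia libraries sit above the normoxia libraries of the same genotype.

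Among the ligands, the genotypes differed most for Jag1, a Jagged ligand that is itself a known Notch target in some cell types. Jag1 was at 524 and 628 in wild-type normoxia and at 477, 473 and 561 in wild-type hypoxia. Its knockout values were 307, 289.8 and 333 in normoxia and 269, 302 and 322 in hypoxia. Every knockout library lay below every wild-type library. Means were 576 ± 73.8 (SD, n = 2) and 504 ± 49.9 (SD, n = 3) in wild-type, and 309.9 ± 21.9 and 298 ± 26.9 (SD, n = 3 each) in the knockout. Jag1 fell by 0.89 on the log2 scale in normoxia (SE 0.11, limma adjusted p = 0.000153) and by 0.76 in hypoxia (SE 0.10, limma adjusted p = 0.000205). Over the 19 alternatives the log2 change ranged from -1.02 to -0.76 in normoxia and from -0.81 to -0.68 in hypoxia, and the call was kept in each. The gene did not pass the test for oxygen in either genotype, with log2 changes of -0.19 (SE 0.11, adjusted p = 0.494) in wild-type and -0.06 (SE 0.10, adjusted p = 0.816) in the knockout. The difference between those hypoxia effects was 0.13, with a 95% interval from -0.19 to 0.45.

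Jag2, the other Jagged ligand, was at 975 and 1005 in wild-type normoxia and at 1206, 1109 and 1265 in wild-type hypoxia. The knockout gave 922, 987 and 1093 in normoxia and 1342, 1299 and 1377 in hypoxia. In each genotype every hypoxia library lay above every normoxia library. It rose by 0.42 on the log2 scale in the knockout (SE 0.07, adjusted p = 0.00225), a call kept in all 19 alternatives. In wild-type cells the change was 0.27 (SE 0.07, adjusted p = 0.0997), and it passed in none of the alternatives (adjusted p from 0.0559 to 0.333). The difference between the effects was 0.16, with a 95% interval from -0.06 to 0.37, so a larger response in the knockout was not shown. In normoxia the genotypes differed by 0.01 (SE 0.07) for Jag2, beside the change of -0.89 for Jag1.

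Dll1, a Delta ligand known from myogenic cells, was at 291 and 432 in wild-type normoxia and at 415, 363 and 371 in wild-type hypoxia. In the knockout it was at 495, 539.7 and 458 in normoxia and at 551, 446 and 434 in hypoxia. Every knockout library was above every wild-type library, the opposite order to Jag1. Its log2 change of 0.48 in normoxia (SE 0.15, adjusted p = 0.0571) missed the threshold, as did that of 0.31 in hypoxia (SE 0.13, adjusted p = 0.191). In normoxia it was called with DESeq2 (0.46, adjusted p = 0.0365) and on removal of wild-type normoxia replicate 2 (0.77, adjusted p = 0.00771) or of knockout hypoxia replicate 1 (0.48, adjusted p = 0.0451). Without wild-type normoxia replicate 1 the change was 0.20 (adjusted p = 0.463).

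Rbpj, which encodes the DNA-binding partner of the cleaved receptors, was at 3967 and 4117 in wild-type normoxia and at 5031, 4866 and 4854 in wild-type hypoxia. Knockout cells had 4325, 4364 and 4208 in normoxia and 5210.3, 5349 and 4988 in hypoxia. In both genotypes every hypoxia value exceeded every normoxia value. Rbpj rose by 0.28 on the log2 scale in wild-type (SE 0.04, adjusted p = 0.00221) and by 0.27 in the knockout (SE 0.04, adjusted p = 0.0011). The adjusted p over the alternatives was at most 0.0443 in wild-type and 0.00886 in the knockout. The difference between the effects was -0.01, with a 95% interval from -0.14 to 0.11. The genotypes differed by 0.09 in normoxia (SE 0.04, adjusted p = 0.238) and 0.08 in hypoxia (SE 0.04, adjusted p = 0.298), neither of which passed. The deeper sequencing of the hypoxia libraries moved with these changes, and its part in them was not tested.

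The target genes are the usual readout of Notch activity. Hes1, a repressor induced by Notch in many cell types, was at 1458 and 1328 in wild-type normoxia and at 1341, 1300.3 and 1442 in wild-type hypoxia. In the knockout it was at 1129, 1171 and 1257 in normoxia and at 1211, 1273 and 1242 in hypoxia. Every knockout library was below every wild-type library at the same oxygen level. Hes1 fell in the knockout in normoxia by 0.23 on the log2 scale (SE 0.07, adjusted p = 0.0426). In hypoxia the change was -0.13 (SE 0.06, adjusted p = 0.224). With hypoxia the log2 change of Hes1 was -0.03 (SE 0.07) in wild-type and 0.07 (SE 0.06) in the knockout.

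Hey1, a second repressor of the same family, was at 145 and 147 in wild-type normoxia and at 200.1, 143 and 174 in wild-type hypoxia. Its knockout values were 91.8, 93.7 and 116 in normoxia and 146, 142 and 133 in hypoxia. In normoxia it fell in the knockout by 0.54 on the log2 scale (SE 0.15, adjusted p = 0.038), with no overlap between genotypes. In hypoxia the genotypes overlapped and the change was -0.28 (SE 0.13, adjusted p = 0.254). Within the knockout every hypoxia library was above every normoxia library, with a log2 change of 0.49 that missed the threshold (SE 0.13, adjusted p = 0.0627). That contrast was called without knockout normoxia replicate 3 (0.59, adjusted p = 0.0307) and without wild-type hypoxia replicate 1 (adjusted p = 0.0481) or 2 (0.0441).

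The normoxia calls of both targets were near the threshold and were lost under changes of processing and on removal of single libraries. With no filter on low values the limma adjusted p was 0.0569 for Hes1 and 0.0589 for Hey1. With only the 2 groups compared it was 0.104 and 0.085. For Hes1, leaving out wild-type normoxia replicate 1 gave -0.16 (adjusted p = 0.286) and replicate 2 gave -0.30 (0.0579). Leaving out knockout normoxia replicate 1 gave -0.20 (adjusted p = 0.132) and replicate 2 gave -0.22 (0.106), all 4 without a call. With the change itself at -0.23, the call also ended on removal of wild-type hypoxia replicate 1 (adjusted p = 0.0509) or of knockout hypoxia replicate 1 (0.0534), 2 (0.0576) or 3 (0.0557). For Hey1, leaving out wild-type normoxia replicate 1 gave -0.55 (adjusted p = 0.137) and replicate 2 gave -0.53 (0.175). Leaving out knockout normoxia replicate 1 gave -0.48 (adjusted p = 0.11) and replicate 2 gave -0.49 (0.107). The call also ended on removal of wild-type hypoxia replicate 3 (adjusted p = 0.0511) or of knockout hypoxia replicate 2 (0.0534). Over all 19 alternatives the log2 change stayed between -0.30 and -0.16 for Hes1 and between -0.65 and -0.48 for Hey1. With edgeR the adjusted p for Hey1 was 0.0566, and with DESeq2 it was 0.081.

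Heyl, the third HEY family repressor, was at 98.5 and 152 in wild-type normoxia and at 92.4, 80.1 and 68.4 in wild-type hypoxia. Knockout libraries were at 90.6, 55.0 and 128 in normoxia and at 84.4, 65.4 and 68.7 in hypoxia. The knockout normoxia libraries differed 2.33-fold among themselves, more than for 95.1% of tested genes. No contrast was called, and the largest was -0.61 in wild-type hypoxia (SE 0.29, adjusted p = 0.378), where the 2 groups did not overlap. The 95% interval of its genotype difference ran from -1.12 to 0.12 in normoxia and from -0.69 to 0.42 in hypoxia.

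**Figure D3:**
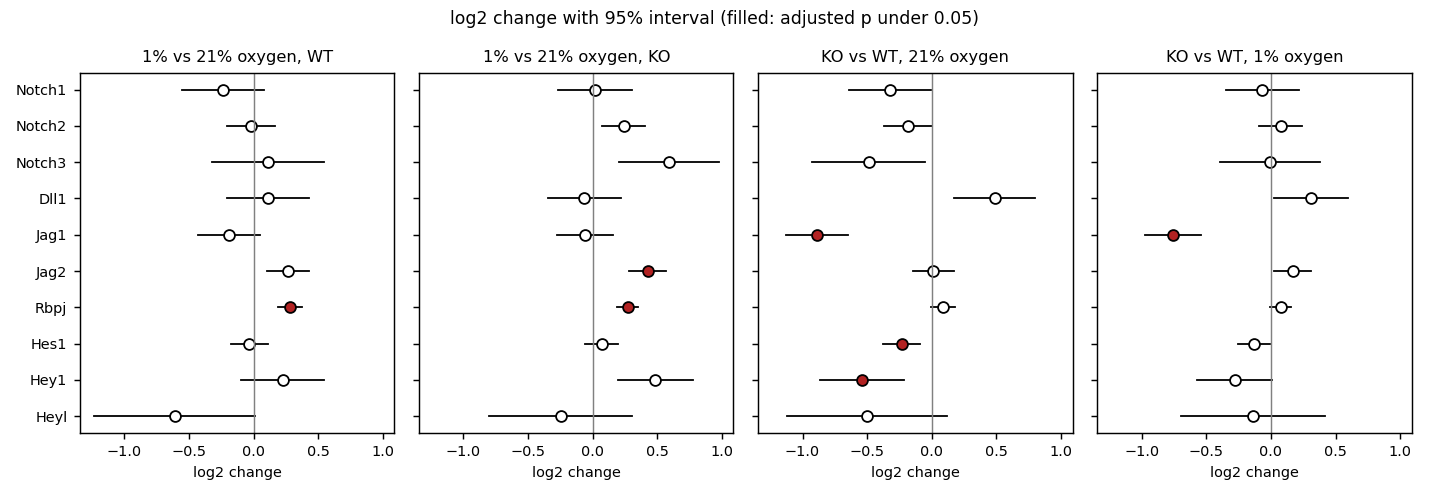
Log2 change (horizontal axis) of each member in 4 comparisons, with the 95% interval from limma as a line and a filled point where the adjusted p was under 0.05. The filled points are Rbpj in both hypoxia comparisons, Jag2 in knockout hypoxia, Jag1, Hes1 and Hey1 in the normoxia genotype comparison and Jag1 in the hypoxia genotype comparison.

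For the difference between the hypoxia effects, limma called 0 members in either direction, where 0.00679% of all genes were called upward and 0% downward. Notch2 alone had an unadjusted p under 0.05, with an adjusted p of 0.917 by limma. Of all 14729 tested genes, 784 were under that cut. The tools edgeR and DESeq2 each called 0 members. The member estimates had a median of 0.21, and 8 of the 10 were above 0, but none passed the test. Among the members, 3 calls between genotypes in normoxia became 1 with no filter on low values, with only the 2 groups compared, and on removal of any 1 of 4 libraries (wild-type normoxia replicate 2, knockout normoxia replicates 1 and 2, knockout hypoxia replicate 2). The 2 upward calls in knockout hypoxia became 4 without knockout normoxia replicate 3.

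Markers of cell state and of other cell types moved with genotype in the same libraries. In these bulk samples fewer cells of a type and less RNA per cell cannot be told apart. Of 14 muscle differentiation markers 9 rose in the knockout in normoxia and 10 in hypoxia. Between genotypes 3.44% of all tested genes rose and 5.66% fell in normoxia, and 3.33% rose and 5.61% fell in hypoxia. In normoxia only the Myh3, Tnnt1 and Tnnc1 calls were kept in all 19 alternatives. In hypoxia the Myog, Mymx and Myl4 calls were lost in some, and the other calls were kept in all. The summed level of the list was 37249 to 42561 and 32128 to 42096 in the wild-type groups. In the knockout groups it was 51581 to 58879 and 50799 to 55678. Of 8 tested fibroblast and fibro-adipogenic progenitor markers 7 fell in each genotype comparison. DESeq2 called 5 of this list in normoxia and 7 in hypoxia. The Dcn and Ly6a calls in normoxia and the Lum and Col1a1 calls in hypoxia were lost in some alternatives. Sums of these fibroblast markers were 19081 to 21236 in wild-type and 14042 to 17015 in knockout libraries. Pdgfra, their defining receptor, was at 685 to 786 in wild-type and 251 to 326 in knockout libraries. Of 10 tested pericyte and smooth muscle markers, Notch3 among them, 5 fell in each genotype comparison, and Pdgfrb was at 1826 to 2161 in wild-type and 682 to 856 in knockout libraries. Their sums were 36701 to 37527 and 32480 to 33771 in the wild-type groups and 30447 to 30956 and 27463 to 27907 in the knockout groups. The part of these shifts in the Jag1, Hes1 and Hey1 results was not tested. With hypoxia limma, edgeR and DESeq2 each called 0 differentiation markers, with 1 at an unadjusted p under 0.05 in wild-type and 3 in the knockout. Of all 14729 tested genes, 2000 and 2584 were under that cut. Of the pericyte markers only Cox4i2 rose with hypoxia, by 1.53 on the log2 scale in wild-type and 1.46 in the knockout. Only Acta2 fell, with changes of -0.19 and -0.18. Of the fibroblast markers 3 rose in the knockout. Some calls of both lists were lost in alternatives. With hypoxia 1.7% of all tested genes rose and 0.468% fell in wild-type, and 3.15% rose and 0.937% fell in the knockout. The part of these markers in the Rbpj and Jag2 results was not tested either.

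Other lineages were scarce. Endothelial markers summed to 119 to 178 in wild-type and 70.7 to 111 in knockout libraries. The list includes the Notch pathway genes Notch4 and Dll4, so these sums are not separate from the pathway. Notch4 alone was at 23.6 to 55.2 in wild-type and 2.48 to 37.9 in knockout libraries. Of 11 genes 5 were below 10 in every library, with Cdh5 at 0 to 9.08. Esam, an endothelial adhesion molecule, was the 1 of 6 tested that fell in each genotype comparison. Its normoxia call was lost in 10 of 18 alternatives. For these small lists, the shares over all tested genes were 3.44% upward and 5.66% downward between genotypes in normoxia. In hypoxia they were 3.33% and 5.61%. Leukocyte markers summed to 18.6 to 50.3 with 5 of 11 in the table. Schwann cell markers summed to 284 to 357 in wild-type and 238 to 296 in knockout libraries. Between genotypes 1 of 4 tested Schwann markers fell in normoxia, and 1 rose and 1 fell in hypoxia. The rise, of Mbp, was lost in 7 of 19 alternatives. Myoblast identity markers also moved with genotype, with sums of 59208 to 62424 in wild-type and 64518 to 67353 in knockout libraries. Of these 10 markers 2 rose in the knockout in normoxia, and 3 rose and 1 fell in hypoxia. Myf5, an early myogenic factor, rose by 0.59 on the log2 scale in normoxia (SE 0.08, limma adjusted p = 0.000306) and by 0.51 in hypoxia (SE 0.07, limma adjusted p = 0.000318). The part of these markers in the member results was not tested.

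**Figure D4:**
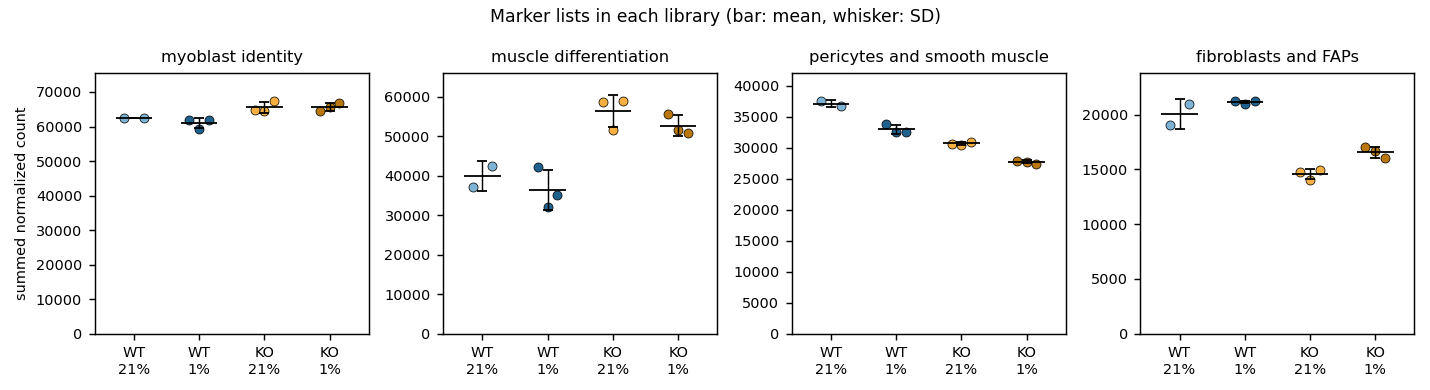
Summed normalized count (vertical axis, from 0) of 4 marker lists in each library, with points for libraries, bars for group means and whiskers for the SD (FAPs, fibro-adipogenic progenitors). All 6 knockout libraries lie above the wild-type libraries for differentiation markers and below them for fibroblast markers.

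The rest of the pathway was read from 9 lists of 95 genes, of which 91 were in the table and 83 were tested. In wild-type hypoxia limma called 0 of the 83, with 11 at an unadjusted p under 0.05, while edgeR called 0 and DESeq2 1. In knockout hypoxia 1 rose and 0 fell, with 23 at an unadjusted p under 0.05, while edgeR called 1 and DESeq2 2. The upward share of all genes was 1.7% for wild-type and 3.15% for the knockout, and the downward share 0.468% and 0.937%. At an unadjusted p under 0.05 there were 2000 of all 14729 tested genes in wild-type and 2584 in the knockout. Between genotypes 5 rose (6.02%) and 7 fell (8.43%) in normoxia, and 6 rose (7.23%) and 4 fell (4.82%) in hypoxia. Both upward counts include Cntn1, which passed the filter only through the knockout libraries. The shares over all genes were 3.44% and 5.66% in normoxia and 3.33% and 5.61% in hypoxia. For the difference between the hypoxia effects limma, edgeR and DESeq2 each called 0, with 4 at an unadjusted p under 0.05 in limma. There 784 of all 14729 tested genes were under that cut. In every comparison limma, edgeR and DESeq2 called 0 of 7 tested gamma-secretase genes and 0 of 14 trafficking and turnover genes. At an unadjusted p under 0.05 limma had at most 2 genes of either list in a comparison. Of the proteases that shed the receptor, Adam10 was at 882 to 1101 in all libraries. Adam17 was at 1700 to 1754 in wild-type normoxia and 1921 to 2107 in wild-type hypoxia. In the knockout it was at 1718 to 1812 in normoxia and 1830 to 1996 in hypoxia. With hypoxia neither limma, edgeR nor DESeq2 called Adam17 in either genotype, so a rise was not shown.

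Lfng is the fringe glycosyltransferase that alters how receptors respond to Delta and Jagged ligands. In hypoxia it was higher in the knockout than in wild-type by 0.38 on the log2 scale (SE 0.08, adjusted p = 0.00714). Its means in normoxia and hypoxia were 461 and 381 in wild-type and 503 and 495 in the knockout. It was at 343 to 422 in wild-type hypoxia and 477 to 518 in knockout hypoxia. The groups did not overlap, and the call was kept in all 19 alternatives. In normoxia the levels were 457 to 465 and 482 to 532, and no call was made. Among the other glycosylation genes, Poglut1 rose by 0.20 (SE 0.06, adjusted p = 0.0383) and Xxylt1 fell by 0.31 (SE 0.08, adjusted p = 0.0207) in normoxia. Epn2, an epsin of ligand endocytosis, fell by 0.28 in normoxia (SE 0.07, adjusted p = 0.02) and by 0.23 in hypoxia (SE 0.06, adjusted p = 0.0357).

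In the nucleus, Maml2, a Mastermind coactivator, fell in the knockout in normoxia by 0.67 (SE 0.11, adjusted p = 0.00201), from 239.8 to 287 in wild-type to 155 to 173 in knockout libraries. In hypoxia it was at 175 to 212 and 155 to 163, and limma did not call it. There limma called 0 of the 8 tested coactivators, while edgeR and DESeq2 each called 1. Of 20 tested corepressors 3 fell in normoxia, where 5.66% of all genes did, and 2 in hypoxia, where 5.61% did. Fhl1, whose KyoT2 isoform binds RBPJ, fell by 0.27 in normoxia (SE 0.07, adjusted p = 0.0213) and by 0.41 in hypoxia (SE 0.06, adjusted p = 0.000547). Bend6, a corepressor of RBPJ, was lower in the knockout than in wild-type in hypoxia, by 0.56 (SE 0.09, adjusted p = 0.000813). Tle1, a Groucho family corepressor, fell by 0.39 in normoxia (SE 0.11, adjusted p = 0.0369).

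Hes6, a HES family member that opposes Hes1 and favours differentiation, rose in the knockout in both comparisons. It was at 4363 to 4663 in wild-type normoxia, 4006 to 4056 in wild-type hypoxia, 4856 to 5392 in knockout normoxia and 4869 to 5052 in knockout hypoxia. The log2 change was 0.18 in normoxia (SE 0.05, adjusted p = 0.039) and 0.30 in hypoxia (SE 0.04, adjusted p = 0.000465). The direction was opposite to that of Hes1, and the hypoxia call was kept in every alternative, while the normoxia call was lost in 9 of 19. Leaving out a library ended it in 7 cases, namely wild-type normoxia replicate 1 (adjusted p = 0.0513) or 2 (0.296), knockout normoxia replicate 2 (0.0782) or 3 (0.0942), wild-type hypoxia replicate 2 (0.0525) and knockout hypoxia replicate 1 (0.0529) or 2 (0.0542).

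Genes described as Notch and RBPJ targets in mouse satellite cells included calls in both directions. In the knockout against wild-type Col5a3, a collagen of that set, fell by 0.75 in normoxia (SE 0.08, adjusted p = 6.72e-05) and by 0.60 in hypoxia (SE 0.08, adjusted p = 0.000152). The collagen VI genes Col6a1 and Col6a2 rose instead, by 0.75 (SE 0.16, adjusted p = 0.0111) and 0.88 (SE 0.17, adjusted p = 0.00499) in normoxia and by 0.92 (SE 0.15, adjusted p = 0.00101) and 1.2 (SE 0.15, adjusted p = 0.000147) in hypoxia. Removal of wild-type normoxia replicate 1 ended the normoxia calls of Col6a1 (0.45, adjusted p = 0.152) and Col6a2 (0.57, adjusted p = 0.0787). Collagens are also made by fibroblasts, whose markers fell in the knockout as given above, and that part was not tested. Pax7, the satellite cell transcription factor in the set, had a log2 change of -0.20 in normoxia (SE 0.10, adjusted p = 0.249) and -0.03 in hypoxia (SE 0.09, adjusted p = 0.91). Foxo3, a forkhead factor in the set, rose with hypoxia against normoxia in the knockout by 0.30 (SE 0.06, adjusted p = 0.0103).

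Of the further ligand-like genes, Cntn1 was called upward in the knockout at both oxygen levels and Dlk2 only in hypoxia. Cntn1, an adhesion protein reported as a Notch ligand in the nervous system, was at 3.51 to 8.58 in wild-type libraries. In knockout libraries it was at 18.6 to 35.9, and only these took it past the filter. Every wild-type library was below the filter value, so its changes rest on low counts. The log2 changes of Cntn1 were 1.61 in normoxia (SE 0.38, adjusted p = 0.0181) and 2.13 in hypoxia (SE 0.34, adjusted p = 0.00114). Its normoxia call was lost in 4 of 18 alternatives, DESeq2 among them (adjusted p = 0.06). Dlk2, a Delta-like protein, was higher in the knockout than in wild-type in hypoxia, by 0.30 (SE 0.09, adjusted p = 0.0496). That call was lost in 15 of 19 alternatives. Leaving out a library ended other calls too. In normoxia the Cntn1 call ended on removal of wild-type replicate 1 (adjusted p = 0.115) or 2 (0.0661) or of knockout replicate 2 (0.0581). That of Fhl1 ended on removal of wild-type replicate 1 (0.212) or knockout replicate 3 (0.0549), and that of Xxylt1 on removal of wild-type replicate 1 (0.206) or knockout replicate 1 (0.0526). The Tle1 call was lost without any 1 of the 5 normoxia libraries (adjusted p from 0.0575 to 0.178). That of Dlk2 was lost without any 1 library other than knockout hypoxia replicate 3 (0.0522 to 0.197). For Poglut1 it ended on removal of either wild-type normoxia library, replicate 1 or 2 of the knockout normoxia or hypoxia group, or wild-type hypoxia replicate 2 (0.0527 to 0.279). The Epn2 call ended in normoxia on removal of wild-type replicate 2 or of knockout replicate 1 or 2 (0.057 to 0.201), and in hypoxia without any 1 hypoxia library other than wild-type replicate 2 (0.057 to 0.122).

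**Figure D5:**
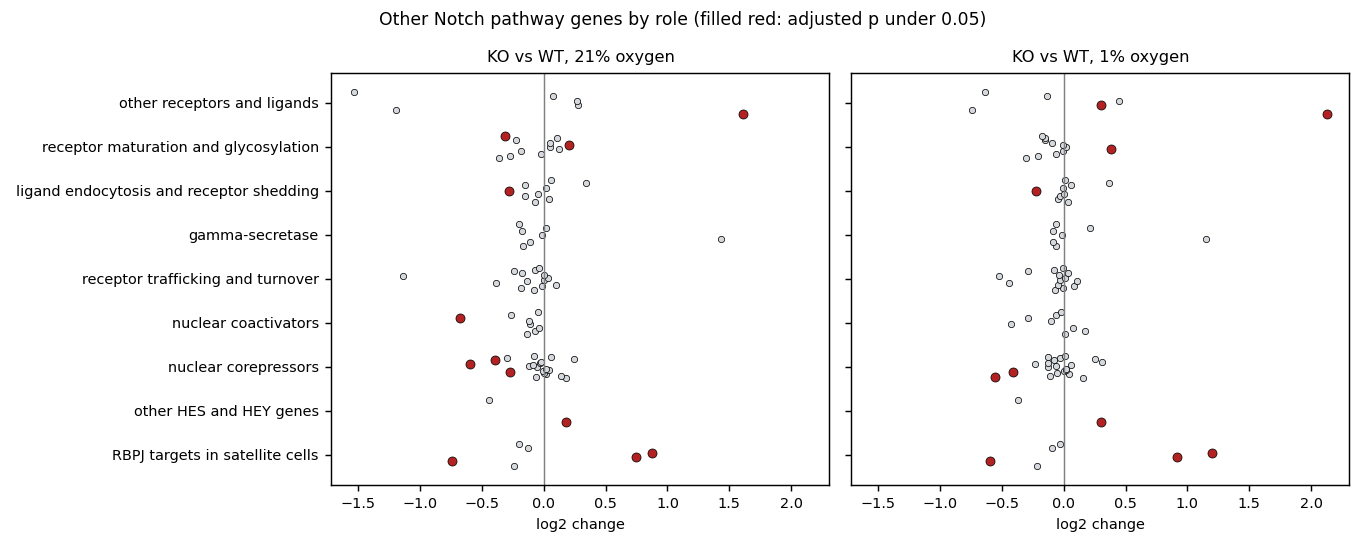
Log2 change between genotypes (horizontal axis) of the other tested pathway genes by role, at 21% oxygen (left) and 1% oxygen (right), with 1 point per gene and filled red points where the adjusted p was under 0.05. Called genes are spread over both directions, and none is in the gamma-secretase or trafficking lists.

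The genes whose pattern over the 11 libraries was most like each member were named by Pearson r of the log2 values among 11468 genes with a mean of at least 50. These libraries share groups and depth, and r is given as a description. Jag1 was most like Shisa5 (r = 0.986), Kcnab1 (0.984) and Unc13c (0.983). For Rbpj they were Zfp292 (0.981), Mboat2 (0.975) and Smtnl2 (0.973), and for Jag2 Zfp516 (0.972), Gper1 (0.967) and Jun (0.952). Hey1 was most like Cdkn2a (0.96), Cebpd (0.96) and Igsf3 (0.957), and Hes1 like Pitpna (0.952), Ank3 (0.937) and Scamp3 (0.931). The closest to Notch3 were Tshz3 (0.946), Dop1b (0.937) and Pax7 (0.933). Notch2 was closest to Bcar1 (0.952), Notch1 to Mon1a (0.926), Dll1 to Myom1 (0.932) and Heyl to Zfp282 (0.909).

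The members lie at separate places in the genome (GRCm38, GENCODE M21), and all are protein-coding. Jag1 is at chr2:137081456-137116644 and Notch1 at chr2:26457903-26516663, both on the minus strand. Notch2 is at chr3:98013527-98150361 on the plus strand and Hey1 at chr3:8663359-8667256 on the minus strand. Notch3 is at chr17:32120820-32166852 and Dll1 at chr17:15367354-15376872, both on the minus strand. Jag2 is at chr12:112907819-112929776 on the minus strand, and Rbpj at chr5:53466152-53657362, Hes1 at chr16:30064384-30067796 and Heyl at chr4:123233556-123249875 on the plus strand. Transcripts on the opposite strand share exon sequence with Notch1 (0610009E02Rik, mean 6.66), Dll1 (A930024N18Rik, 12.0) and Notch3 (Gm17276, 6.01), each far below the member in mean normalized count. The kit marked strand, but whether counting used it is not given in the sources used here.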

How the data were processed

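Total RNA of 11 libraries was sequenced after stranded library preparation from 1 µg of RNA, per the labels' protocols. The deposited table holds signal values, which are read counts that the authors scaled by a size factor for each library. The submitters' processing notes name bcl2fastq, STAR, Picard, HTSeq, RSEM, DESeq2 and the mm10 build, without versions or the tool that counted. Undoing that scaling returned a whole read number, to within 0.01 read, for 100% of values. All columns were used.

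The test was limma 3.58.1 (R 4.3.3) with a variance trend on log2(value + 1), a scale that understates changes of genes with low counts. The 14729 genes that reached 10 in at least 2 libraries were tested. The fit had 4 groups and 5 two-sided comparisons, with Benjamini-Hochberg adjustment over all tested genes and calls at an adjusted p under 0.05. Comparisons at 1 oxygen level share libraries with those of 1 genotype, so their results are not independent. The fit was checked on simulated data. Alternatives were pseudocounts of 0.5 and 5, no filter or a filter of 50, TMM scaling, edgeR 4.0.16 and DESeq2 1.42.0 on recovered reads, only the 2 groups compared, and leaving out each library.

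The members and lists were chosen with earlier results of these data known. Named genes were the 10 members, list genes called in any comparison (at most 4 per list and comparison, by smallest adjusted p), and the 3 genes most like each member. Of the list genes, 1 that the rule names is not reported here. A few list genes with no call were added after their values were seen. Symbols, positions and exon lengths came from GENCODE M21, and promoters from RefSeq. Depth was 18707697 to 33613328 recovered reads per library. The member log2 changes had SEs of 0.04 to 0.39. In limma these combine the spread between libraries with a variance trend over all tested genes.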

Additional observations from a re-analysis of the deposited data

How the results depend on the processing

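Of the counts of members called, 3 moved by over 1.5 times under an alternative. Upward calls in knockout hypoxia went from 2 to between 2 and 4 when single libraries were left out. Upward calls between genotypes in normoxia went from 0 to 1 with DESeq2 and to between 0 and 1 when single libraries were left out. Downward calls there went from 3 to 1 with no filter on low values and with only the 2 groups compared, and to between 1 and 3 when single libraries were left out. With only the 2 groups compared, fewer libraries entered the fit, and the cause was otherwise not tested. The other counts of members kept their value under all alternatives, and the Jag1, Rbpj and knockout Jag2 calls were kept in each. TMM scaling moved the median of all genes by at most 0.011 on the log2 scale. Over the alternatives, genes called upward and downward between genotypes in normoxia numbered 229 to 530 and 439 to 872, in hypoxia 318 to 519 and 598 to 910. Genes called upward and downward with hypoxia numbered 143 to 293 and 18 to 99 in wild-type, and 303 to 495 and 64 to 182 in the knockout. For the difference between the hypoxia effects limma called 1 gene upward and 0 downward, and 784 had an unadjusted p under 0.05. There edgeR called 0 upward and DESeq2 4. The fit to only the 2 groups compared does not exist for that comparison and was not run. When wild-type normoxia is left with 1 library, that library is assumed to vary like the other groups. No paired analysis was possible because the replicate numbers come from accession order and link no libraries. Heyl and Hey1 had at most 133 and 224 recovered reads per library, and the part of depth in their error was not tested.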

Other observations

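Several Notch pathway genes known from other tissues were at low levels in these myoblasts. Notch4, a receptor known from endothelium, was at 2.48 to 55.2, and Dll4, an endothelial ligand, at 0 to 1.55. Hes5, a target known from neural progenitors, was at 0 to 1.82, and Hey2, known from heart and vessels, at 3.72 to 14.8. Nrarp, a feedback inhibitor induced by Notch, was at 20.5 to 40.4. Hes6 was the most abundant HES or HEY gene of the lists in counts not divided by length, at 4006 to 5392.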
